A study of Rattus norvegicus with 6 samples.

Results

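The collagen gene family was examined in injured rat sciatic nerve with and without electrical stimulation. Its members were the genes whose symbol has the form Col, a type number, the letter a and a chain number. The rule used names alone and found 43 of the 33713 genes of the count table. They were placed by type into 5 classes: 9 fibrillar genes, 8 of basement membranes, 5 of beaded filaments, 4 transmembrane genes and 17 others. The ES group held 3 libraries of sciatic nerve from Sprague-Dawley rats, all female and 8 weeks old. The nerve was collected on day 4 after an injury that left a gap of about 6 mm and was followed at once by 1 h of electrical stimulation. The control group held 3 libraries of nerve from rats of the same strain, sex, age and day, without stimulation. In both groups the nerve ends were sutured 2 mm deep into a silicone tube 10 mm long. Whether each library is from its own animal is not in the labels. The p-values therefore speak only to the spread among these libraries, and that spread may be technical.

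Collagens are extracellular proteins in which 3 alpha chains wind into a triple helix. Fibrillar types I, III and V form the fibrils between nerve fibres and in the outer sheaths of the nerve, where fibroblasts are their main makers. Type IV forms the network of the basement membranes around Schwann cells and blood vessels, and type VI forms fine beaded filaments next to them. After an injury, collagen both scaffolds the regrowing nerve and builds scar. Levels are given in FPKM, fragments scaled by gene length and library depth, so levels of different genes can be set side by side. Differences are log2 fold changes of ES over control with their standard errors (SE), from edgeR's quasi-likelihood test on the deposited counts.

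Library totals ran from 14962319 to 17119144 counts, and 14828 genes passed the low-count filter. Library ES 2 stood apart in blood cell RNA, with 3797 summed CPM (counts scaled by library size) of erythrocyte markers against 261 to 604 in the other 5 libraries. Among the collagens control 2 stood nearer to the ES libraries than the other controls did. Over the 25 members with a mean of at least 5 FPKM, control 2 was the lowest control library for 16 genes, and control 3 was the highest for 16. The median log2 difference of these 25 genes from the control mean was −0.21, −0.17 and −0.09 in ES 1, 2 and 3, and −0.02, −0.17 and 0.13 in control 1, 2 and 3. The main sums, and the genes that moved most with control 2 or control 3, are therefore given without them as well.

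Collagen mRNA averaged lower in ES nerve, at 0.782 of the control sum, and the fibrillar genes made up most of the gap, but no single collagen gene passed the main test. Summed over the 43 genes, collagen reached 4806, 5430 and 4872 FPKM in the ES libraries, against 6718, 5366 and 7231 FPKM in the control libraries. The group ranges overlapped, because control 2 lay just below ES 2. The ratio was 0.722 without control 2 and 0.833 without control 3. Collagen genes took 2.46%, 2.67% and 2.53% of all counts in the ES libraries and 3.44%, 2.74% and 3.67% in the control libraries. Col3a1, Col6a5 and Col15a1 had the lowest adjusted p-values in a second test, DESeq2. Their fold changes of ES over control from edgeR were 0.674, 0.496 and 0.655. In bulk tissue fewer cells of a type and less RNA per cell cannot be told apart.

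Of the 43 genes, 39 passed the low-count filter. At a Benjamini-Hochberg adjusted p under 0.05, edgeR called 0 of the 39, against a background of 0.169% of all genes tested. At an unadjusted p under 0.05, 9 of the 39 were lower in ES nerve, where the background was 5.94%, and 3 were higher, where the background was 4.01%. DESeq2 gave an adjusted p to 40 of the genes and called 3 lower, against a background of 1.37%, and 0 higher, against 0.651%. In 7 of the 39 genes every ES library was below every control library, a pattern seen in 7.92% of all genes tested. In 2 genes every ES library was above every control, against 7.94%. The log2 fold change was below 0 in 24 of the 39, against 49.3% of all genes. Its median was −0.18 over the collagens and 0.0025 over all genes tested.

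These counts turned on single controls, and the background moved with them. Without control 2 edgeR called 4 collagens lower, Col1a1, Col3a1, Col4a1 and Col6a5, against a background of 0.842% of all genes in that fit. At an unadjusted p under 0.05, 13 were then lower, against 7.63%, and 5 were higher. The share of all genes higher in that fit was not computed, and it was 4.01% with all libraries. Without control 3 edgeR called 0 collagens, against 0.0% of all genes lower and 0.0133% higher. At an unadjusted p under 0.05, 5 were lower, against 4.53%, and 2 were higher, with no background computed for the latter. DESeq2 called 10 collagens lower and 2 higher without control 2, against 2.11% and 0.797% of all genes. It called 0 without control 3, against 0.53% of all genes lower and 0.278% higher. Leaving out ES 2, the library with the most blood cell RNA, left 8 lower, against 6.36%, and 3 higher, against 3.35%, at an unadjusted p under 0.05 by edgeR.

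**Figure D1:**
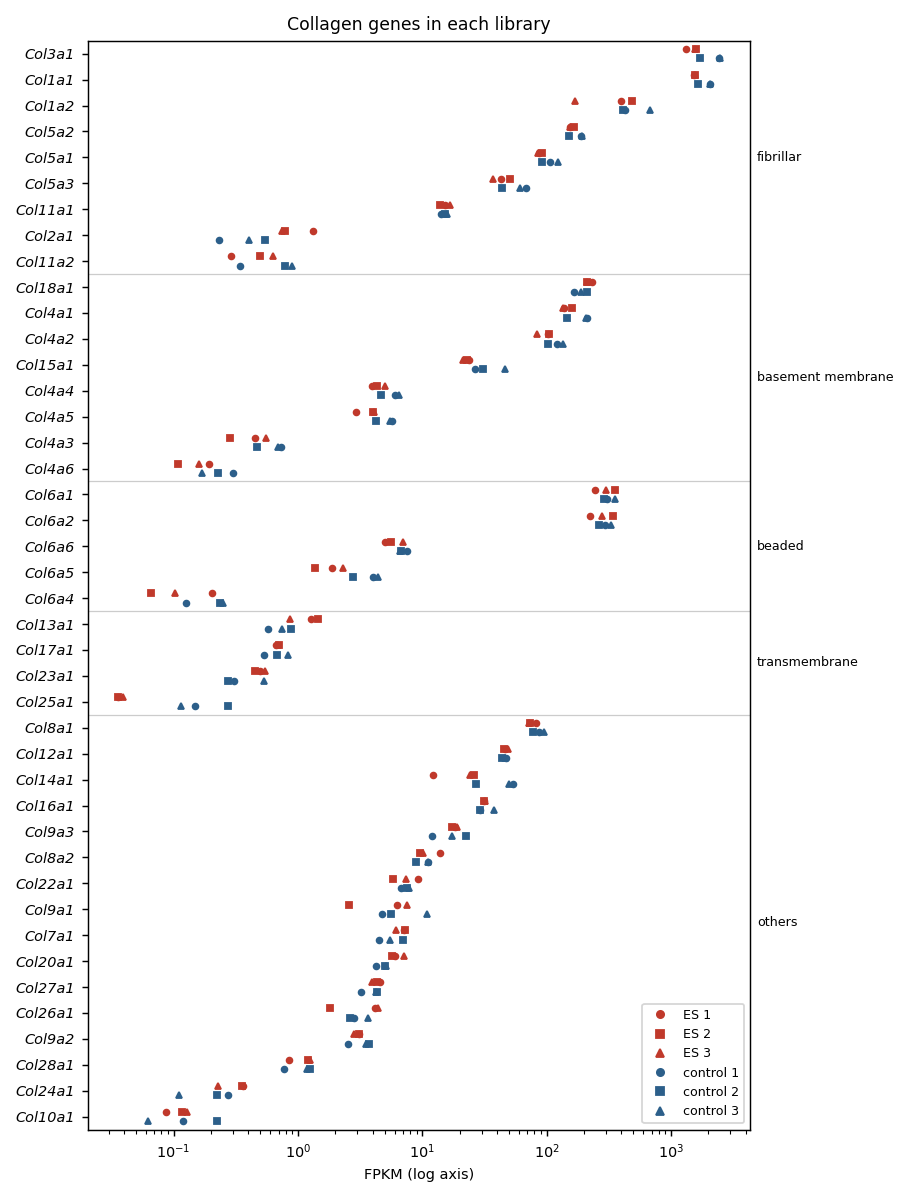
FPKM of the collagen genes (log axis) in each library, with ES libraries in red and control libraries in blue, grouped by class and ordered by mean level. Col19a1, listed at 0 in ES 3, is not drawn. Levels span from under 0.1 FPKM for Col25a1 in the ES libraries to 2494 FPKM for Col3a1 in control 3.

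**Figure D2:**
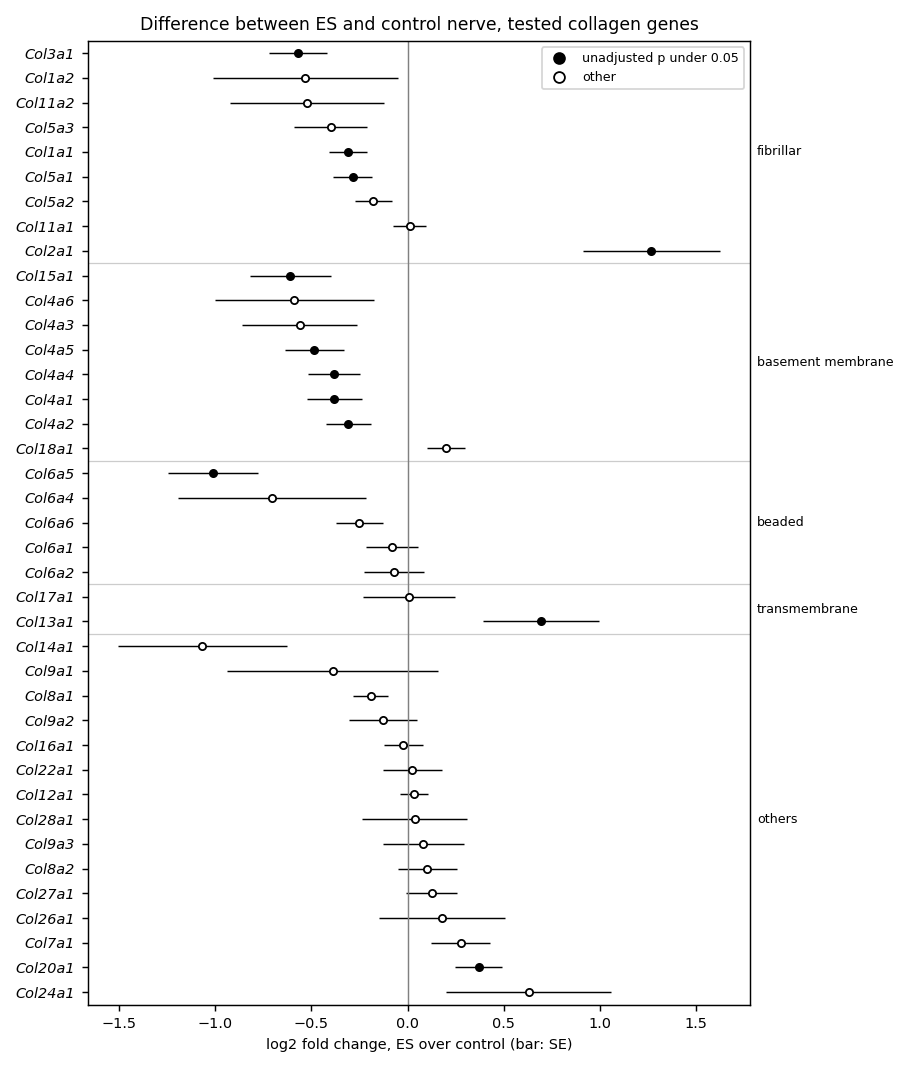
Log2 fold change of ES over control for the 39 collagen genes tested, with bars for the SE and filled points for an unadjusted p under 0.05. Filled points lie below 0 in the fibrillar, basement membrane and beaded classes, with Col2a1, Col13a1 and Col20a1 filled above 0.

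The fibrillar class supplied most of the collagen mRNA. Its 9 genes summed to 3570, 3982 and 3573 FPKM in the ES libraries, against 5301, 4055 and 5639 FPKM in the control libraries. The ranges did not overlap, although ES 2 and control 2 were close, and the ratio of the means was 0.742, or 0.678 without control 2 and 0.793 without control 3. As a share of all collagen FPKM the class made up 73.7% ± 0.550 in ES nerve and 77.5% ± 1.73 in control nerve (SD, n = 3 each). All 9 were tested and 7 had a log2 fold change below 0, against 49.3% of all genes tested, with a median of −0.31. At an unadjusted p under 0.05, 3 were lower, against 5.94% of all genes, and 1 was higher, against 4.01%.

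Col3a1, the only chain of type III collagen, which mixes with type I in distensible tissue and early scar, lies on chromosome 9 at 52023295 to 52059217 (+ strand). It was at 1331, 1596 and 1555 FPKM in the ES libraries and 2438, 1699 and 2494 FPKM in the control libraries. Every ES library lay below every control, with control 2 only slightly above ES 2. The log2 fold change was −0.57 ± 0.15 (SE, n = 3 each), with an adjusted p of 0.226 by edgeR and 0.00175 by DESeq2. The edgeR adjusted p ran from 0.0104 without control 2 to 0.599 without control 1. Without control 3 the log2 fold change was −0.47. DESeq2 no longer called Col3a1 without ES 1, without control 1 or without control 3, at adjusted p-values of 0.122, 0.151 and 0.167.

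Col1a1 encodes the alpha 1 chain of type I collagen, the main fibril-forming collagen of connective tissue, and lies on chromosome 10 at 82745801 to 82762789 (+ strand). Its levels were 1541, 1575 and 1551 FPKM in the ES libraries and 2058, 1641 and 2067 FPKM in the control libraries. The ES libraries had an SD of 17.4 FPKM and all lay below the controls, of which control 2 was again the lowest. The difference was a log2 fold change of −0.31 ± 0.10, with an adjusted p of 0.303 by edgeR and 0.0597 by DESeq2. Without control 2 the edgeR adjusted p was 0.0365. It was 0.653 without control 1 and 0.618 without control 3, where the log2 fold change was −0.25. Col1a1 and Col3a1 ranked 25 and 22 by mean FPKM among all genes and together held 62.4%, 61.5% and 66.3% of the collagen counts in the ES libraries and 68.8%, 64.8% and 65.5% in the control libraries.

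The ratio of Col3a1 to Col1a1 also separated the groups. A ratio of Col3a1 to Col1a2, the other type I chain, was not computed, and Col1a2 itself overlapped between the groups. Of the chain ratios computed, only Col3a1 over Col1a1 and Col8a1 over Col8a2 did not overlap. Col3a1 over Col1a1 was 0.864, 1.01 and 1.00 in the ES libraries and 1.19, 1.04 and 1.21 in the control libraries. Every ES library was below every control, by a small margin for control 2. This ratio was chosen with the values of both genes known, and it was not tested.

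Col1a2 encodes the alpha 2 chain, which joins 2 alpha 1 chains in the type I trimer, and lies on chromosome 4 at 31534225 to 31569151 (+ strand). It stood at 398, 487 and 171 FPKM in the ES libraries and 427, 410 and 684 FPKM in the control libraries. ES 3 was far below and control 3 far above the other libraries, so the groups overlapped. Its log2 fold change was −0.53 ± 0.48, with an edgeR adjusted p of 0.784. The within-group SD of its log2 CPM was 0.639, and only 14 of the 774 genes with a mean of at least 100 FPKM, itself included, had an SD that large. Col1a1 over Col1a2 was therefore 3.88, 3.23 and 9.09 in the ES libraries and 4.82, 4.01 and 3.02 in the control libraries, a 3.01-fold range for 2 chains of the same protein.

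Of the chain pairs drawn, Col1a1 over Col1a2 and Col9a1 over Col9a3 varied most. The deposited table also holds a second row described as the type I alpha 2 chain, NEWGENE_621351, with 20 to 39 counts per library. Adding its counts to Col1a2 left the log2 fold change at −0.53 ± 0.48. In ES 3 the Col1a2 row had 11631 counts and the second row 29. The start of the Col1a2 promoter window is printed because the gene stands apart in this way. It is from RefSeq, build GRCr8, chr4:33518307-33518426 on the + strand, 250 to 131 bases before the annotated start. Capitals mark ATTGG, the reverse of the CCAAT box letters, and TATAAA.

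Col1a2: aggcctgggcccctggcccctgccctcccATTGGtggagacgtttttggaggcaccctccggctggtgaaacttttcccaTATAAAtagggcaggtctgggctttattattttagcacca

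Type V collagen copolymerises with type I and limits fibril width. Col5a1 was at 86.4, 91.5 and 86.0 FPKM in the ES libraries and 106, 92.0 and 123 FPKM in the control libraries. The groups did not overlap, but ES 2 and control 2 differed by less than 1 FPKM. The log2 fold change was −0.29 ± 0.10, with an edgeR adjusted p of 0.363. It was −0.17 without control 3, at an edgeR adjusted p of 0.721, and −0.38 without control 2, at 0.0875. Its partner Col5a2 was at 154, 166 and 155 FPKM in the ES libraries and 189, 153 and 193 FPKM in the control libraries, and these overlapped. Col5a3, the remaining chain, was at 43.0, 51.1 and 37.2 FPKM in the ES libraries and 68.1, 43.6 and 61.1 FPKM in the control libraries, with control 2 again among the ES values. Their log2 fold changes were −0.18 ± 0.10 and −0.40 ± 0.19. Col5a1 over Col5a2 was 0.561, 0.552 and 0.555 in the ES libraries and 0.558, 0.603 and 0.636 in the control libraries. This was a 1.15-fold range, with control 2 and control 3 above every ES library.

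The remaining fibrillar chains, best known from cartilage, were weakly expressed. Col2a1, the chain of cartilage type II collagen, lies on chromosome 7 at 139455242 to 139483997 (− strand) and was at 1.32, 0.791 and 0.752 FPKM in the ES libraries and 0.230, 0.547 and 0.407 FPKM in the control libraries. Every ES library was above every control, on 52 to 101 counts in the ES libraries and 17 to 38 in the control libraries. The difference was a log2 fold change of 1.27 ± 0.36, with an adjusted p of 0.227 by edgeR and 0.0773 by DESeq2. Col11a1, a chain of type XI collagen, stood at 13.9 to 16.6 FPKM in the ES libraries and 14.3 to 15.9 FPKM in the control libraries, with a log2 fold change of 0.01 ± 0.08. Col11a2 was under 1 FPKM in every library.

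**Figure D3:**
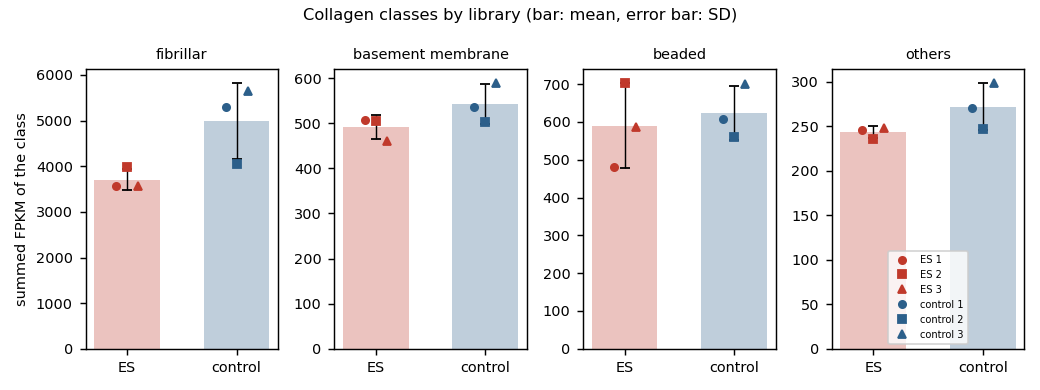
Summed FPKM of 4 collagen classes in each library (points), with the mean (bar) and SD (error bar) of the ES and control groups. The fibrillar points of the 2 groups do not overlap, with 3982 in ES 2 and 4055 in control 2 closest, and the other classes overlap. The transmembrane class, under 3 FPKM in every library, is not drawn.

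The basement membrane class summed to 507, 506 and 461 FPKM in the ES libraries and 537, 502 and 590 FPKM in the control libraries. These ranges overlapped. All 8 genes were tested, 7 had a log2 fold change below 0, against 49.3% of all genes tested, and the median was −0.43. At an unadjusted p under 0.05, 5 were lower, against 5.94% of all genes, and 0 were higher, against 4.01%. The class took 9.78% ± 0.677 of collagen FPKM in ES nerve and 8.50% ± 0.741 in control nerve (SD, n = 3 each), and these ranges overlapped too.

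Col4a1 and Col4a2 encode the chains of the type IV trimer found in nearly all basement membranes. They are transcribed in opposite directions from a shared promoter, which is printed here. Their RefSeq starts have 76 bases between them in build GRCr8. The stretch is chr16:84885491-84885626 on the + strand, reaching 30 bases into each gene. Capitals mark CCGCCC, the reverse strand of the GC box letters GGGCGG, and ATTGG, the reverse strand of CCAAT.

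Col4a1-Col4a2: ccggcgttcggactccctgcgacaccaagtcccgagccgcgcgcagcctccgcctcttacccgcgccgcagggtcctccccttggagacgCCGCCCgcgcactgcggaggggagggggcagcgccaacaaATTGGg

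RefSeq promoters were matched for 34 of the 43 collagen genes. Within 250 bases before the start, searched on both strands, GGGCGG was present in 19 of 34 (55.9%), against 32.4% of all 27457 promoters. CCAAT was present in 11 of 34 (32.4%), against 34.3%, and TATAAA in 4 of 34 (11.8%), against 13.1%. A match is a description of letters, not of a site in use.

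Col4a1, on chromosome 16 at 83522162 to 83632153 (+ strand), was at 139, 159 and 135 FPKM in the ES libraries and 210, 146 and 206 FPKM in the control libraries. Control 2 lay within the ES range. Its log2 fold change was −0.38 ± 0.14, with an edgeR adjusted p of 0.415, which became 0.0254 without control 2. The edgeR adjusted p of Col4a1 was 0.753 without control 1 and 0.719 without control 3. Col4a2, its neighbour at 83387364 to 83438561 (− strand), was at 104, 104 and 83.3 FPKM in the ES libraries and 121, 103 and 135 FPKM in the control libraries, a log2 fold change of −0.31 ± 0.12 with an edgeR adjusted p of 0.419. Control 2 lay within its ES range too, and without control 3 the log2 fold change of Col4a2 was −0.21. Col4a1 over Col4a2 stayed between 1.34 and 1.62 in the ES libraries and between 1.41 and 1.74 in the control libraries.

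The restricted chains of type IV, which replace alpha 1 and alpha 2 in some basement membranes such as that of the kidney filter, were at far lower levels. Col4a5 was at 2.93, 4.04 and 4.07 FPKM in the ES libraries and 5.68, 4.26 and 5.46 FPKM in the control libraries, with no overlap. Col4a4 was at 3.97, 4.32 and 4.99 FPKM in the ES libraries and 6.09, 4.64 and 6.51 FPKM in the control libraries, where control 2 was below ES 3. The log2 fold changes were −0.49 ± 0.15 for Col4a5 and −0.38 ± 0.14 for Col4a4, with edgeR adjusted p-values of 0.302 and 0.376. Col4a3 and Col4a6 were under 1 FPKM in every library, at log2 fold changes of −0.56 ± 0.30 and −0.59 ± 0.42. The alpha 3, alpha 4 and alpha 5 chains assemble into 1 trimer, and Col4a3 was the scarcest of these messages.

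Types XV and XVIII are basement membrane zone collagens with interrupted helices, and type XVIII is the source of the fragment endostatin. Col15a1, on chromosome 5 at 62840360 to 62950240 (+ strand), was at 23.7, 23.1 and 21.1 FPKM in the ES libraries and 26.6, 30.7 and 46.0 FPKM in the control libraries. The groups did not overlap, and control 3 was the highest library. The log2 fold change was −0.61 ± 0.21, with an adjusted p of 0.416 by edgeR and 0.0111 by DESeq2, and without control 3 it was −0.34. The DESeq2 call held without control 1 only. With ES 1, ES 2, ES 3, control 2 or control 3 left out, the DESeq2 adjusted p was between 0.178 and 0.748. Here control 2 was not the lowest control, unlike in Col1a1, Col3a1, Col4a1 and Col4a2.

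Col18a1 differed in sign from the rest of its class. It was at 234, 211 and 212 FPKM in the ES libraries and 167, 213 and 190 FPKM in the control libraries, with control 2 inside the ES range. The difference was a log2 fold change of 0.20 ± 0.10, with an unadjusted edgeR p of 0.0654. By mean FPKM it was the most abundant gene of the class in both groups, narrowly so in control nerve, at 190 against 187 for Col4a1.

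Type VI collagen is built from an alpha 1, an alpha 2 and a further chain, and forms beaded filaments between cells and fibrils. The 5 named genes summed to 480, 704 and 588 FPKM in the ES libraries and 609, 561 and 700.1 FPKM in the control libraries, with broad overlap. All 5 were tested and all had a log2 fold change below 0, against 49.3% of all genes tested. Of the 5, 1 was lower at an unadjusted p under 0.05, against 5.94% of all genes. Col6a1 was at 247, 354 and 299.7 FPKM in the ES libraries and 304, 287 and 358 FPKM in the control libraries. Col6a2 was at 225, 343 and 278 FPKM in the ES libraries and 293, 264 and 330.4 FPKM in the control libraries. Both rank their libraries alike within each group, with ES 2 and control 3 highest, and Col6a1 over Col6a2 ran only from 1.03 to 1.10. Their log2 fold changes were −0.08 ± 0.14 and −0.07 ± 0.16, and both turned above 0 without ES 1 or without control 3.

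The chain that joins alpha 1 and alpha 2 has alternatives. Col6a5, one of them, on chromosome 8 at 114529016 to 114617466 (− strand), was at 1.88, 1.37 and 2.30 FPKM in the ES libraries and 3.99, 2.75 and 4.40 FPKM in the control libraries. Every ES library was below every control, on 182 to 278 counts in the ES libraries and 334 to 547 in the control libraries. Its log2 fold change was −1.01 ± 0.23, with an adjusted p of 0.198 by edgeR and 0.000436 by DESeq2. Without control 2 the edgeR adjusted p was 0.0356, and it was 0.526 without control 1 and 0.453 without control 3. DESeq2 no longer called Col6a5 without control 1 or without control 3, at adjusted p-values of 0.0731 and 0.0961. Col6a6, next to it on chromosome 8, was at 5.03, 5.61 and 7.003 FPKM in the ES libraries and 7.61, 6.70 and 6.60 FPKM in the control libraries, and the groups overlapped. Col6a4, the other neighbour, had 7 to 22 counts in the ES libraries and 13 to 25 in the control libraries.

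The usual partner, type VI alpha 3, has no symbol of the family's form in these tables. It is described in the row AABR07068316.1, on chromosome 9 at 97926787 to 98004546. That row was at 48.9, 60.4 and 59.8 FPKM in the ES libraries and 88.1, 56.5 and 84.2 FPKM in the control libraries, where control 2 lay within the ES range. Its log2 fold change was −0.44 ± 0.18, with an edgeR adjusted p of 0.481. Relative to Col6a2 it was 0.217, 0.176 and 0.215 in the ES libraries and 0.301, 0.214 and 0.255 in the control libraries. In all, 7 rows described as collagen chains lay outside the naming rule and are not counted in the family. Among them LOC108348074, described as like the type XV chain, had 756 to 1232 counts in the ES libraries and 1073 to 1667 in the control libraries. Because reads of near-identical rows may be split between them, its counts were also added to Col15a1, which gave a log2 fold change of −0.55 ± 0.17, with an adjusted p of 0.338 by edgeR and 0.0110 by DESeq2.

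**Figure D4:**
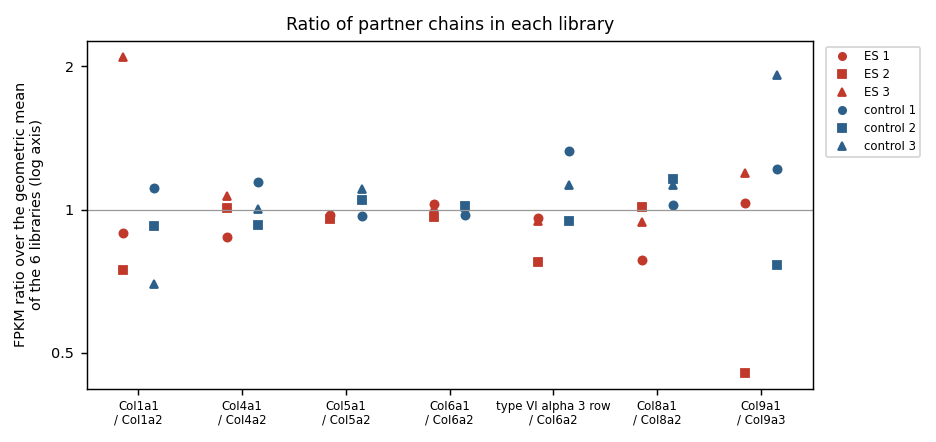
FPKM ratio of partner chains in each library, divided by the geometric mean of the 6 libraries (log axis), with ES left of control. Col6a1 over Col6a2 varies least, and ES 3 stands apart for Col1a1 over Col1a2.

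Of the transmembrane collagens, which span the cell membrane and can be shed, 2 of 4 passed the filter. Col13a1, found at sites of cell adhesion and at the neuromuscular junction, was at 1.27, 1.44 and 0.864 FPKM in the ES libraries and 0.577, 0.884 and 0.743 FPKM in the control libraries. ES 3 lay within the control range. The log2 fold change was 0.69 ± 0.30, with an edgeR adjusted p of 0.481. Col17a1, a hemidesmosome protein of skin, was at 0.672, 0.711 and 0.686 FPKM in the ES libraries and 0.531, 0.683 and 0.839 FPKM in the control libraries, a log2 fold change of 0.01 ± 0.24. The untested pair were near the limit of detection. Col23a1 had 10, 9 and 10 counts in the ES libraries and 6, 5 and 10 in the control libraries. Col25a1 had 1 count in each ES library and 4, 7 and 3 in the control libraries.

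The other 17 genes comprise fibril-associated, network-forming, anchoring and further types, and as a class they stood at 246, 236 and 248 FPKM in the ES libraries and 270.5, 247 and 299 FPKM in the control libraries. Of the 15 tested, 5 had a log2 fold change below 0, against 49.3% of all genes tested, and the median was 0.04. At an unadjusted p under 0.05, 0 were lower, against 5.94% of all genes, and 1 was higher, against 4.01%. Col8a1, a chain of the short-chain network of vessel walls, was at 82.2, 73.4 and 72.6 FPKM in the ES libraries and 86.5, 78.3 and 94.8 FPKM in the control libraries, a log2 fold change of −0.19 ± 0.09 with overlap. Its partner Col8a2 was at 13.9, 9.58 and 10.2 FPKM in the ES libraries and 11.2, 8.95 and 11.1 FPKM in the control libraries. Col8a1 over Col8a2 was lower in every ES library, at 5.93, 7.66 and 7.12, than in the control libraries, at 7.74, 8.75 and 8.52, a ratio that was not tested.

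The fibril-associated collagens sit on the surface of fibrils. Col12a1 was at 46.5, 45.5 and 48.6 FPKM in the ES libraries and 47.3, 43.4 and 46.1 FPKM in the control libraries, with a log2 fold change of 0.03 ± 0.07 and the smallest within-group spread of the family. Col14a1, its close relative, was at 12.1, 26.3 and 24.4 FPKM in the ES libraries and 54.2, 26.95 and 50.0 FPKM in the control libraries. The groups did not overlap, but ES 2 and control 2 nearly met. The difference was a log2 fold change of −1.07 ± 0.44, with an adjusted p of 0.531 by edgeR and 0.321 by DESeq2. It was −1.32 without control 2 and −0.96 without control 3. Col20a1 was at 5.99, 5.70 and 7.09 FPKM in the ES libraries and 4.28, 5.05 and 5.15 FPKM in the control libraries, with every ES library higher. Its log2 fold change was 0.37 ± 0.12, with an adjusted p of 0.308 by edgeR and 0.271 by DESeq2.

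Further members showed wide spread or small differences. Col9a1 was lowest in ES 2, at 2.58 FPKM, and highest in control 3, at 10.9 FPKM, and Col9a1 over Col9a3 had a 4.21-fold range over the 6 libraries. Col7a1, the chain of the anchoring fibrils of skin, was at 6.10 to 7.28 FPKM in the ES libraries and 4.49 to 6.98 FPKM in the control libraries, a log2 fold change of 0.28 ± 0.16. Col28a1, which in mice is known from glia of peripheral nerve, had a log2 fold change of 0.04 ± 0.27. For Col9a2, Col9a3, Col16a1, Col22a1, Col24a1, Col26a1 and Col27a1 the log2 fold changes lay between −0.13 and 0.63, with an unadjusted p above 0.05 for each. Col10a1, the chain of hypertrophic cartilage, and Col19a1 did not pass the filter, with at most 7 counts in a library for Col10a1 and 5 for Col19a1.

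The proteins that make, process and bind collagen were taken from lists of pathway genes. Of 23 genes for collagen synthesis and export, 0 were lower and 0 were higher at an unadjusted p under 0.05. Over all genes tested these shares were 5.94% and 4.01%. The median log2 fold change of the list was 0.03. P4ha1, a subunit of prolyl 4-hydroxylase, had the lowest p, at 77.2 ± 14.5 CPM in ES nerve and 61.7 ± 8.59 CPM in control nerve (SD, n = 3 each), a log2 fold change of 0.32 ± 0.15. P4hb, its partner subunit, had 0.14 ± 0.08. Tmem38b, a channel of the endoplasmic reticulum, and Plod1, a lysyl hydroxylase, had 0.24 ± 0.12 and 0.16 ± 0.09.

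The median log2 fold change of 16 tested genes for procollagen cleavage and cross-linking was −0.11. At an unadjusted p under 0.05, 0 were higher, against 4.01% of all genes, and 1 was lower, against 5.94%. That gene was Loxl2, an oxidase that cross-links collagen, at 67.6 ± 4.18 CPM in ES nerve and 101 ± 21.4 CPM in control nerve (SD, n = 3 each). The groups did not overlap, and its log2 fold change was −0.58 ± 0.15, with an adjusted p of 0.225 by edgeR and 0.00526 by DESeq2. Pcolce, an enhancer of procollagen cleavage, Pxdn, a peroxidase that cross-links type IV, and Adamts3, a procollagen protease, had log2 fold changes of −0.19 ± 0.10, −0.24 ± 0.13 and 0.59 ± 0.35.

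Proteins that sit on fibrils had the lowest median of these lists, at −0.34. Of 17 tested, 5 were lower and 1 was higher at an unadjusted p under 0.05, against 5.94% and 4.01% of all genes. Fbn1, the microfibril protein fibrillin, was at 913 ± 70.1 CPM in ES nerve and 1429 ± 223 CPM in control nerve (SD, n = 3 each). Its log2 fold change was −0.65 ± 0.12, with an adjusted p of 0.0772 by edgeR. Fmod and Kera, small proteoglycans that bind fibrils, had −0.60 ± 0.11 and −2.63 ± 0.67, and Ltbp1, which stores latent TGF-beta in the matrix, had −0.32 ± 0.10. Every ES library was below every control in these 4 genes, which were picked for the lowest p. That pattern was seen in 7.92% of all genes tested.

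Basement membrane partners held the only gene of these 6 lists that edgeR called. Over all genes tested edgeR called 0.169%. Papln, which encodes the matrix protein papilin, fell to 5.70 ± 1.67 CPM in ES nerve, against 15.2 ± 1.24 CPM in control nerve (SD, n = 3 each). Every ES library was below every control, a pattern seen in 7.92% of all genes tested. The log2 fold change was −1.42 ± 0.20, with an adjusted p of 0.0366 by edgeR. Fits with 1 library left out are not given for Papln. Without control 3 edgeR called only 2 of all genes. Of 14 tested genes of the list 6 were lower and 1 was higher at an unadjusted p under 0.05. Over all genes these shares were 5.94% and 4.01%. The median of the list was −0.19. Lama5, a laminin chain, Hspg2, the proteoglycan perlecan, and Fbln1, a fibulin, had log2 fold changes of −0.26 ± 0.07, −0.38 ± 0.11 and −0.53 ± 0.18.

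Among 13 tested collagen receptors 3 were lower and 3 higher at an unadjusted p under 0.05, against 5.94% and 4.01% of all genes. Their median was −0.02. Itga11, the alpha chain of a fibroblast integrin for fibrillar collagen, was at 5.16 ± 2.58 CPM in ES nerve and 13.7 ± 3.91 CPM in control nerve (SD, n = 3 each), a log2 fold change of −1.41 ± 0.40, with an adjusted p of 0.293 by edgeR and 0.00194 by DESeq2. Adgrg1, an adhesion receptor for type III collagen, and the proteoglycan Sdc1 had 0.26 ± 0.08 and 0.23 ± 0.07. Mrc2, which takes up collagen, had −0.32 ± 0.11.

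Of 14 tested proteases and inhibitors of collagen breakdown, 0 were lower and 1 was higher at an unadjusted p under 0.05. The shares over all genes were 5.94% and 4.01%, and the median of the list was 0.09. Ctsb, the lysosomal protease cathepsin B, was at 2747 ± 365 CPM in ES nerve and 2276 ± 73.5 CPM in control nerve (SD, n = 3 each), a log2 fold change of 0.27 ± 0.10. The protease genes Mmp12, Ctsl and Mmp9 had 1.63 ± 0.72, 0.20 ± 0.12 and 1.31 ± 0.81, and their groups overlapped.

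Markers of the cells that make collagen were summed in the same libraries, and their part in the collagen results was not tested. Fibroblast markers summed to 4256, 5949 and 4778 CPM in the ES libraries and 6297, 4905 and 6013 CPM in the control libraries. The groups overlapped. Of the 15 fibroblast markers, all tested, 14 had a log2 fold change below 0. Over all genes tested the share below 0 was 49.3%, which also stands beside the marker lists that follow. The most abundant were Dcn, at 1276 FPKM in ES nerve and 1284 FPKM in control nerve, and Lum, at 306 FPKM in ES nerve and 389 FPKM in control nerve. Pericyte and smooth muscle markers summed to 1034 to 1154 CPM in the ES libraries and 1398 to 1712 CPM in the control libraries, led by Tagln and Acta2, and 12 of 13 had a log2 fold change below 0. Endothelial markers, led by Eng and Cdh5, summed to 809 to 864 CPM in the ES libraries and 993 to 1115 CPM in the control libraries, and all 12 tested had a log2 fold change below 0. In both of these lists the sums of the groups did not overlap. EdgeR called 1 gene of each list, against 0.169% of all genes tested. At an unadjusted p under 0.05, 11 of 13 pericyte and smooth muscle markers were lower, against 5.94% of all genes. For endothelial markers this was 9 of 12.

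Adipocyte markers showed the widest gap, at 291, 1000.0 and 553 CPM in the ES libraries and 2303, 1869 and 1795 CPM in the control libraries, with Cfd and Fabp4 the most abundant and 14 of 15 with a log2 fold change below 0. Schwann cell markers, S100b among the most abundant, summed to 12750, 12678 and 11929 CPM in the ES libraries and 9524, 12116 and 9413 CPM in the control libraries. Macrophage markers, led by Lyz2 and C1qa, summed to 3560 to 4776 CPM in the ES libraries and 2694 to 3238 CPM in the control libraries, without overlap. Markers of perineurial cells, led by Itgb4 and Slc2a1, summed to 1167 to 1539 CPM in the ES libraries and 1387 to 1454 CPM in the control libraries. Tendon and cartilage markers, led by Thbs4 and Fmod, summed to 2558 to 3182 CPM in the ES libraries and 2293 to 2971 CPM in the control libraries.

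Neutrophil markers, led by S100a9 and S100a8, summed to 24.5, 180 and 19.2 CPM in the ES libraries and 19.3 to 25.6 CPM in the control libraries, and erythrocyte markers, led by Hba-a1 and Hbb, were also high in ES 2. Skeletal muscle markers, led by Tnnt3 and Mylpf, stayed under 18 CPM in every library, and epithelial markers, led by Epcam and Cdh1, under 58 CPM. Cldn5, Lypd2 and Krt14, single markers of the endothelial, perineurial and epithelial lists, were listed at 0 in every library. As a check of the nerve label, S100b, a calcium-binding protein of Schwann cells, was at 1166 FPKM in ES nerve and 873 FPKM in control nerve.

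**Figure D5:**
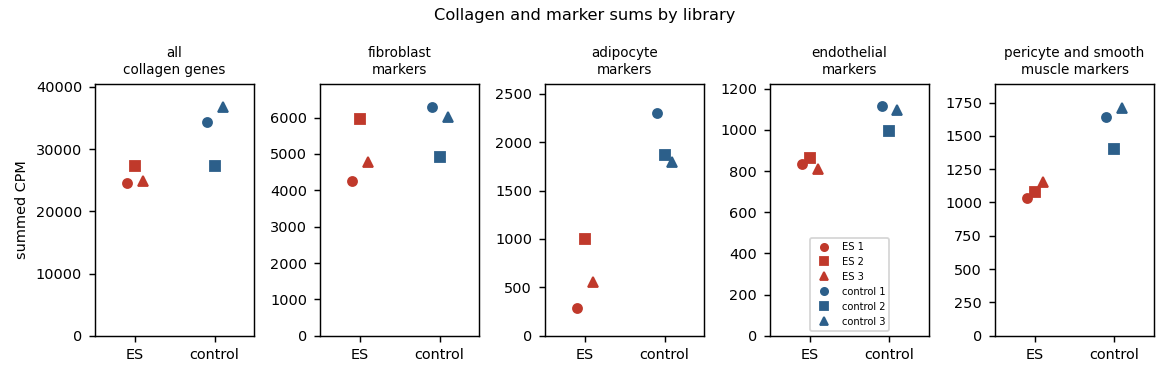
Summed CPM of the collagen genes and of 4 cell type marker lists in each library, with ES left of control. Control 2 has the lowest collagen sum of the controls and the lowest fibroblast and pericyte marker sums of the controls, and the adipocyte, endothelial and pericyte sums do not overlap between the groups.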

How the data were processed

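Per the labels' protocols, RNA was extracted with TRIzol, and a NEBNext Ultra kit was used for library preparation. The authors deposited whole-number read counts per gene and FPKM values of the same 6 libraries. Their table of FPKM group means was not used. How reads were aligned and counted, and whether strand was used, is not given in the sources used here. Per the submitters' processing notes the build is rn7, but the deposited tables hold 6890 gene names starting AABR07 and reach position 282724300 on chromosome 1, as the earlier rat assembly does, so the build of the printed coordinates is not settled. The table included 830 rows with an identifier but no gene name, which held 0.723% to 0.840% of a library's counts and were kept.

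The test was edgeR 4.0.16 in R 4.3.3: filterByExpr, TMM normalization and a robust quasi-likelihood fit of the 3 ES and 3 control libraries, two-sided, over all 14828 genes kept, with Benjamini-Hochberg adjustment over all of them. An adjusted p under 0.05 was a call. The SE was computed as the size of the log2 fold change over the root of F. CPM was computed from TMM-scaled library sizes. DESeq2 1.42.0 and limma 3.58.1 were alternatives, as were other filters, scalings, pseudocounts on log2(FPKM + pseudocount) and leaving out each library. The code was tested on simulated data, where both tools also called unchanged genes, DESeq2 more of them than edgeR. Within a group, any 2 libraries had a chi-square of 10.6 to 18.3 per gene, well above sampling noise, and each counted as 1 replicate.

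Values in every library are given for collagens with an unadjusted p under 0.05, for the 2 of each class with the highest mean FPKM and for partner chains. Up to 4 genes of lowest p are named from each pathway list, and up to 2 of highest mean FPKM from each marker list, of which 1 is not reported here. Other genes with values in every library, such as Col14a1, Col20a1 and Col8a2, were chosen after their values were seen where this rule does not take them. The members and lists were chosen with earlier results of these data known. Of 254 list memberships 240 matched a gene, by symbol or through RefSeq synonyms. Promoter sequences are from RefSeq, build GRCr8.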

Additional observations from a re-analysis of the deposited data

How the results depend on the processing

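The 4 collagens with the fewest counts did not pass the low-count filter and were not tested. The count of all genes called was 25, against 308 by DESeq2, 2 by limma-voom, 2 with non-robust dispersions, 39 with library totals alone, 132 with no filter on low counts, 11 with a replicate block, 3 by limma on log2(FPKM + 1), 2 on log2(FPKM + 0.1), and 2 (without control 3) to 152 (without control 2) when 1 library was left out. The count of collagens called was 0, against 3 by DESeq2, 1 with the replicate block (Col6a5, adjusted p 0.0364) and 0 to 4 with 1 library left out. Same-numbered libraries of the 2 groups deviated with correlations of −0.16, −0.17 and −0.04. Without a comparison to differently numbered libraries these values cannot exclude pairing by number, and the main test used no pairing. With 1 library left out, collagens lower at an unadjusted p under 0.05 numbered 5 (without control 3) to 13 (without control 2). The shares of all genes lower in these 2 fits were 4.53% and 7.63%. Collagens higher numbered 2 to 5, with no share of all genes computed for either fit. DESeq2 calls ran from 0 without control 3 to 12 without control 2. Over all genes DESeq2 called 0.53% lower and 0.278% higher without control 3, and 2.11% and 0.797% without control 2. The median log2 fold change of the collagens was −0.20 to −0.065. Over the 39 collagens tested, the edgeR log2 fold change of 12 changed sign in at least 1 fit with a library left out: Col6a1, Col6a2, Col8a2, Col9a1, Col9a3, Col11a1, Col12a1, Col16a1, Col17a1, Col22a1, Col26a1 and Col28a1. The 18 collagens with an unadjusted p under 0.05 or among the 2 most abundant of a class were compared under 16 alternatives. These did not include the DESeq2 fits with a library left out, which called up to 12 collagens. Of the 288 values, 273 kept their direction and side of the threshold, 8 newly passed it and 7 turned sign. With 1 library left out, Col6a1 ran from −0.21 to 0.045 and Col6a2 from −0.23 to 0.072, both above 0 without ES 1 (0.045 and 0.072) and without control 3 (0.02 and 0.02). Col12a1 ran from −0.00032 without control 2 to 0.065, and Col17a1 from −0.14 without control 1 to 0.18, with −0.01 without ES 2. The cause of these shifts was not tested. Summing duplicate rows, DESeq2 with libraries left out, the sums without a control and the alternatives for counts at an unadjusted p were chosen after seeing the data.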
